A study of Mus musculus with 27 samples.

Results

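Omental adipose tissue of *Mlx*KO mice was compared between 20 and 5 months of age, using 5 samples at 20 months and 4 at 5 months, 9 of the 27 samples of the series. The members were chosen by tissue and age alone, and every gene measured in them was examined. The mice of both ages had floxed *Mlx* and a tamoxifen-inducible Cre (CreERT2) expressed from the *Rosa26* locus, a promoter that is active throughout the body, and came from a cross of *Mlx* Flox/Flox mice with the line Gt(ROSA)26Sortm1(cre/ERT2)Tyj/J, which is on a B6.129 background. Each had been given 5 daily injections of 75 mg/kg tamoxifen in corn oil at weaning, once it weighed at least 15 g, so that deletion was intended in adipocytes and in all other cells of the tissue alike. The comparison is therefore of age within 1 genotype, and no WT sample was analysed here. The study describes its mice as male and the tissue as abdominal white fat. The 5-month samples of all 3 tissues came from the same 4 mice, as the study lists its animals. That list gives each 20-month sample a number of its own, and these were treated as separate mice. The labels give the older age as 20 months, and that name is kept here. The codes of the same samples contain the number 18, and the study's list of animals has that lower age for the mice whose numbers end in the same digits.

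Visceral white fat stores triglyceride in adipocytes and releases it as fatty acids between meals. The adipocytes, which also secrete hormones such as leptin and adiponectin, are surrounded by progenitors and fibroblasts that lay down collagen, by a dense capillary network with its pericytes and smooth muscle, by a mesothelial covering and by resident macrophages and lymphocytes. Macrophages that take up lipid from dying adipocytes acquire a distinct program marked by *Trem2*, *Spp1* and *Gpnmb*, and omental fat holds small lymphoid clusters rich in B cells. The *Mlx* gene encodes the partner through which the glucose-sensing factors ChREBP (*Mlxipl*) and MondoA (*Mlxip*) bind DNA and control lipogenic and glycolytic genes.

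The values are the deposited ones, which are CPM (reads on a gene relative to all reads of the library) divided by 1 factor per sample, and each sample held 15141861 to 25673919 reads on genes. Values of single genes are listed below for samples 36, 37, 38, 39 and 40 at 20 months and for samples Y1, Y2, Y3 and Y4 at 5 months, numbered here in the order of their codes, always in that order. A change is the difference, 20 minus 5 months, in mean log2(value + 1), a scale on which changes of weakly expressed genes appear smaller than they are. A gene was called higher or lower where its adjusted p from limma (Benjamini-Hochberg over all 14005 genes tested) was under 0.05. Whether the samples of an age came from separate litters or cages was not given, and the p-values measure the spread between these samples.

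The labelled tissue was checked against its own markers. The adipocyte genes *Adipoq* (532 to 1182) and *Plin1* (50 to 785) were abundant in all 9 samples, although *Plin1* was only 50 in sample Y2. Neither *Adipoq* (log2 change 0.43, limma adjusted p = 0.209) nor *Plin1* (1.61, adjusted p = 0.0542) passed the test. The targeted gene *Mlx* gave 8.19 to 13.9 at 20 months and 8.2 to 11 at 5 months (0.19, adjusted p = 0.349). These reads cover the whole gene, including exons outside the deleted segment, and do not measure the deletion. The study's list of animals gives *Mlx* transcript relative to WT, by qRT-PCR, for adipose tissue of animals with matching numbers. It was low at both ages and tended to be higher in the older animals.

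Of the 14005 genes, 1365 (9.75%) were called higher and 1309 (9.35%) lower at 20 months, and the median change of all genes tested was 0.007. These shares are the background against which the counts of each gene list are read below. Without regard to the test, 8.3% of all genes were higher and 9.1% lower in every 20-month sample than in every 5-month sample. The first principal component of the 14005 genes held 58.7% of the variance and followed age in most samples, but the ages overlapped on it. Sample 36 (-12.2) lay below sample Y3 (-3.8), while the other 20-month samples lay between 30.2 and 61.2 and the other 5-month samples between -36.4 and -75.2. Across genes, sample 36 correlated more closely with 5-month sample Y4 (Pearson's r = 0.969) than with any sample of its own age (0.92 to 0.96). The counts depended on single samples: leaving out sample Y1 left 207 higher and 190 lower genes, and leaving out sample 36 gave 1925 and 1823. Without both samples at the ends of the first component, 38 and Y2, 157 genes were higher and 134 lower, and without both samples nearest the other age, 36 and Y3, 1954 and 1853. In the 36 cases in which limma called 0 genes of a list in one direction, at most 3 of its genes had an unadjusted p under 0.05 in that direction, edgeR called at most 1 and DESeq2 at most 2. In bulk tissue, fewer cells of a type and less RNA per cell cannot be told apart, which applies to every list below.

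**Figure D1:**
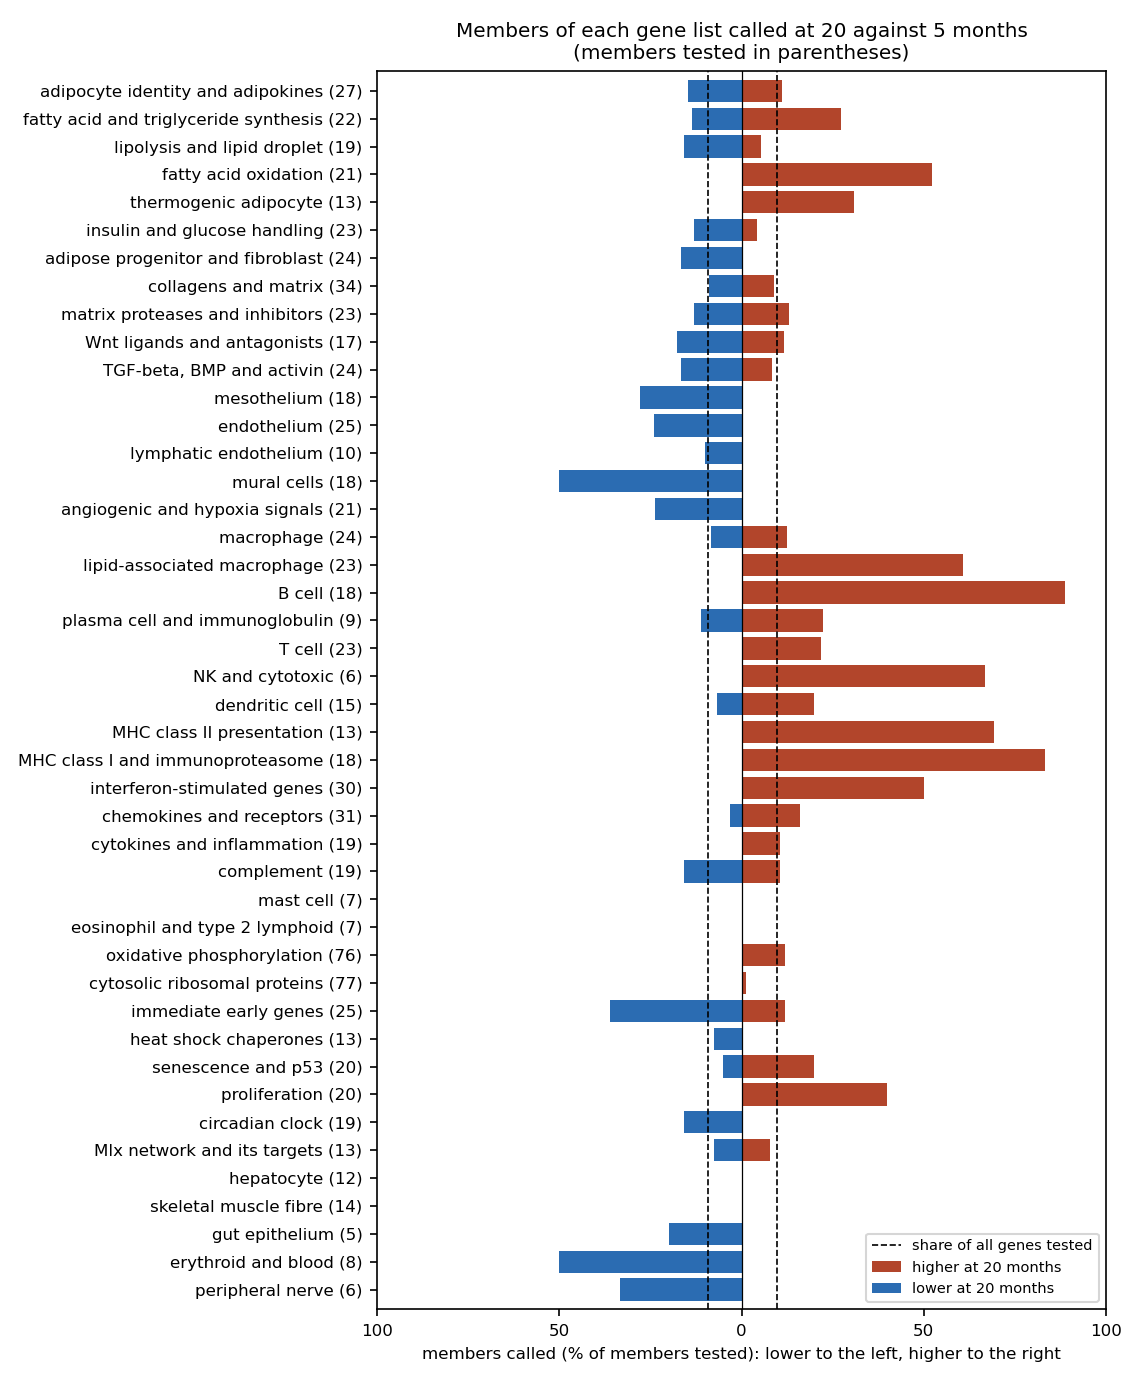
Percentage of the tested members of each gene list called higher (right, red) or lower (left, blue) at 20 months, for lists with at least 5 members tested (number in parentheses). The dashed lines mark the share of all genes tested that were higher (9.75%) and lower (9.35%). The B cell list (88.9% higher) and the class I list (83.3% higher) extend farthest to the right, and the lists of mural cells and of erythroid and blood genes extend farthest to the left.

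Among the largest increases without overlap between the ages were genes of unlike function. The gene *Slc5a7*, which encodes the high-affinity choline transporter of cholinergic neurons, was listed at 0 or low at 5 months (0, 0, 2.59 and 8.09) and reached 26.1, 72.8, 16.3, 64.1 and 45.5 at 20 months (log2 change 4.07, SE 0.69, limma adjusted p = 0.0118). *Tph2*, the neuronal tryptophan hydroxylase of serotonin synthesis, read 3.45, 31.5, 9.07, 11.6 and 14.2 against 0, 0, 0.465 and 0.64 (3.30, SE 0.48, adjusted p = 0.00921). *Itgad*, the integrin alpha D chain of myeloid cells, read 1.5, 22.3, 33.4, 19.2 and 3.17 against 0.191, 0, 0.265 and 0.32, so that samples 36 and 40 were far below the other 3 samples of their age (3.22, SE 0.73, adjusted p = 0.0238). *C130026I21Rik*, *Gm15433* and *LOC101055758* also rose by 3.49, 3.19 and 3.47. They lie close together on chromosome 1, between 84958587 and 85555681 in GRCm38.p6, where related gene copies lie side by side, and how the authors' counting divided reads among such copies is uncertain. *Slc5a7*, *Tph2* and these 3 genes were called in all 9 fits that each left out 1 sample, whereas *Itgad* was not called in 4 of them. *Tph2*, *Itgad* and those 3 genes reached a value of 1 in no 5-month sample, so they passed the filter through the 20-month samples alone. That was so of 122 of the genes tested, 78 of them called higher, and 41 genes, 36 of them called lower, passed through the 5-month samples alone.

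The largest decreases included several enzymes. The cytochrome P450 gene *Cyp2e1* read 522, 334, 102, 88.4 and 325 at 20 months and 3220, 2318, 2054 and 1832 at 5 months (log2 change -3.38, SE 0.52, limma adjusted p = 0.00948). The ages were far apart, and sample 36 was the highest of its age. *Acsm3*, a mitochondrial medium-chain acyl-CoA synthetase, read 11.8, 1.99, 2.05, 2.27 and 7.11 against 51.3, 44.6, 26.2 and 12.5 (-2.62, SE 0.54, adjusted p = 0.0187). *Bean1*, whose product binds a ubiquitin ligase, fell from 8.74 ± 3.15 (SD, n = 4) to 0.838 ± 0.537 (SD, n = 5). *Cyp2e1* and *Bean1* were called in all 9 fits that left out 1 sample, and *Acsm3* in 7 of them.

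Adipocyte genes moved in both directions. Of 27 genes of adipocyte identity, including adipokines, all tested, 3 rose and 4 fell, a share near the background in each direction, and the median change was 0.26. *Dgat2*, the last enzyme of triglyceride synthesis, read 123, 408, 288, 282 and 386 against 38.5, 12.1, 71.8 and 92.4, every 20-month sample being above every 5-month sample (log2 change 2.67, SE 0.56, limma adjusted p = 0.0200). The insulin-responsive glucose transporter *Slc2a4* (0.98) and the glycerol 3-phosphate dehydrogenase *Gpd1* (1.74) rose as well, although sample 39 for *Slc2a4* and sample 36 for *Gpd1* lay inside the 5-month range. *Cfd*, which encodes the adipokine adipsin, a complement protease, was lower in all 5 samples at 20 months (2121, 771, 548, 794 and 1148) than at 5 months (3375, 2729, 2715 and 2953), a change of -1.61 (SE 0.36, adjusted p = 0.0240). The master regulator of adipocyte differentiation, *Pparg*, fell by 0.61 (adjusted p = 0.0464), from 102 ± 21.9 (SD, n = 4) to 66.3 ± 11.7 (SD, n = 5). The leptin gene *Lep* was highest in sample 37 (1627) and lowest in sample Y2 (17.6), and its change of 2.33 did not pass the test (adjusted p = 0.0812). *Dgat2* lost its call without 1 of the 9 samples (Y1), and the other called genes of this list in 4 to 8 of the 9 fits.

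Fatty acid oxidation genes rose where they were called. Of 21 tested, 11 (52.4%, against 9.75% of all genes) were higher and 0 lower, and the median change was 0.53. *Acadm*, the medium-chain acyl-CoA dehydrogenase, read 246, 367, 280, 293 and 316 against 118, 79.1, 133 and 179 (log2 change 1.28, SE 0.22, limma adjusted p = 0.0120). The mitochondrial thiolase *Acaa2* read 87.7, 182, 134, 135 and 129 against 42.7, 35.1, 56.8 and 73.1 (1.36, SE 0.24, adjusted p = 0.0128). In neither gene did the ages overlap, and sample 36 was the lowest of its age in both. The short-chain dehydrogenase *Acads* (0.93) and the muscle-type carnitine palmitoyltransferase *Cpt1b* (1.6), whose isoform controls fatty acid entry into mitochondria, rose too. Without sample Y1, 2 of the 21 were called, and without sample 36 or Y4, 13 were higher.

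Lipid synthesis genes split. Of 22 tested, 6 rose (27.3%, against 9.75% of all genes) and 3 fell (13.6%, against 9.35%), with a median of 0.13. Besides *Dgat2*, those that rose included *Insig1*, which holds sterol-regulated transcription factors in the endoplasmic reticulum and read 49.4, 67.1, 68.4, 72.7 and 71.2 against 31.2, 38.3, 39.8 and 40.7 (log2 change 0.79, SE 0.14, limma adjusted p = 0.0120), and *Srebf1*, the lipogenic transcription factor (0.68, adjusted p = 0.0285). Those that fell were *Acacb*, the acetyl-CoA carboxylase of the mitochondrial surface (168, 83.7, 38.8, 95.1 and 117 against 333, 325, 301 and 226), *Gpam*, which attaches the first acyl chain to glycerol 3-phosphate (-1.39), and *Mlxipl*, which encodes ChREBP (-0.77). *Acacb* did not overlap between the ages and changed by -1.68 (SE 0.35, adjusted p = 0.0201). The fatty acid synthase gene *Fasn* (0.50, adjusted p = 0.230) and the desaturase *Scd1* (-0.74, adjusted p = 0.401) did not pass, and *Scd1* ranged from 4471 to 26043 among the 9 samples. Without sample Y1, 1 gene of the list was called higher and 0 lower, and without sample 36, 7 and 3.

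Most genes of lipolysis and its hormonal control did not pass the test. Of 19 tested, 1 rose (5.26%, against 9.75% of all genes) and 3 fell (15.8%, against 9.35%), with a median of 0.17. *Adrb3*, the beta-adrenergic receptor of adipocytes, read 268, 75.7, 69.6, 71.6 and 291 against 754, 691, 485 and 386 (log2 change -2.16, SE 0.49, limma adjusted p = 0.0246). The ages did not overlap, and samples 37, 38 and 39 lay well below samples 36 and 40. *Pnpla2*, the triglyceride lipase ATGL, read 1580, 1328, 1009, 1049 and 1313 against 2205, 2130, 2331 and 1801 (-0.77, adjusted p = 0.0379), and the phosphodiesterase *Pde3b*, through which insulin opposes lipolysis, fell by 1.20 on the log2 scale. The hormone-sensitive lipase gene *Lipe* did not pass (0.37, adjusted p = 0.315). *Adrb3* was not called in 5, *Pde3b* in 6 and *Pnpla2* in 7 of the 9 fits that left out 1 sample.

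The lipid droplet protein *Cidea*, the gene in this list that rose, is also a marker of thermogenic fat. It read 3.36, 3.35, 5.74, 3.35 and 3.85 against 0.957, 0.591, 0.498 and 1.25 (log2 change 1.43, SE 0.19, limma adjusted p = 0.00757). *Otop1*, a proton channel also expressed in brown fat, read 1.33, 12.1, 6.93, 10.2 and 7.86 against 0.128, 0.0739, 0.0995 and 0.0873 (2.78, SE 0.44, adjusted p = 0.0105), so that sample 36 again lay nearest the 5-month samples. Like *Tph2*, it passed the filter through the 20-month samples alone. In all, 4 of 13 thermogenic genes tested rose and 0 fell (edgeR called 4 and 1), 5 changes were negative, and the median was 0.22. *Ppargc1a*, the coactivator of mitochondrial and thermogenic genes, read 6.78, 2.37, 1.61, 3.35 and 2.45 against 13.9, 16, 3.12 and 10.1 and did not pass (-1.38, adjusted p = 0.0532), nor did *Slc27a2* (-1.38), *Ppara* (-0.58) or *Ebf2* (-0.49). *Ucp1*, the uncoupling protein itself, was too low to be tested: it read 0.531, 0.895, 0.952, 2.46 and 1.34 at 20 months and 0.319, 0.0739, 0.0332 and 0.146 at 5 months. *Cidea* and *Otop1* were called in all 9 fits that left out 1 sample, and the count of the list was 2 without sample 37, 39, 40, Y1 or Y2.

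Of 23 genes of insulin signalling and glucose handling, 1 rose (4.35%, against 9.75% of all genes) and 3 fell (13%, against 9.35%). The gene that rose was *Slc2a4*, and the median change was 0.04. The insulin receptor gene *Insr* read 134, 90.7, 60.8, 91.5 and 115 against 203, 295, 156 and 160 (log2 change -1.04, SE 0.25, limma adjusted p = 0.0287). *Igf1r*, the related receptor for insulin-like growth factor, fell by 1.03 on that scale (adjusted p = 0.0489). *Grb10*, an adaptor that inhibits both receptors, read 96.8, 37.9, 20.2, 39 and 75.2 against 221, 195, 148 and 122, without overlap (-1.82, SE 0.41, adjusted p = 0.0234). *Grb10* was not called in 4 of the 9 fits that left out 1 sample, *Insr* in 5 and *Igf1r* in 7.

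Stromal genes were read list by list, beginning with progenitors and fibroblasts. Of 24 progenitor and fibroblast genes tested, 0 rose and 4 fell (16.7%, against 9.35% of all genes), with a median change of -0.08. The matrix glycoprotein gene *Fbln1* read 39.6, 22.7, 22.9, 34.8 and 20.7 against 61.6, 61.3, 98.6 and 45.9 (log2 change -1.21, SE 0.25, limma adjusted p = 0.0196). *Pi16*, which marks the early progenitors of the fibroblast lineage, fell by 0.82 on the log2 scale, from 35.2 ± 12.3 (SD, n = 4) to 19.3 ± 5.73 (SD, n = 5). *Pdgfra*, the growth factor receptor that marks the lineage as a whole, ranged from 49.9 to 78.5 and from 60.1 to 83.7 at the 2 ages (-0.08, adjusted p = 0.718). The small leucine-rich proteoglycan gene *Dcn* did not pass (-0.61, adjusted p = 0.0567). *Fbln1* lost its call without 1 of the 9 samples (Y1) and *Pi16* in 7 of the 9 fits.

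Collagen and matrix genes were called at the background rate, 3 of 34 higher and 3 lower, with a median change of 0.14. *Col15a1*, a collagen of basement membranes that surrounds adipocytes, read 101, 269, 214, 204 and 232 against 32.9, 17.3, 90.9 and 94.1, without overlap (log2 change 2.02, SE 0.50, limma adjusted p = 0.0288). *Col6a5*, a chain of microfibrillar collagen VI, read 87, 30.9, 31.9, 70.6 and 37.6 against 173, 166, 339 and 125 (-1.97, SE 0.37, adjusted p = 0.0153), and the elastin gene *Eln* fell from 274 ± 166 (SD, n = 4) to 94.6 ± 28.4 (SD, n = 5). The fibrillar collagen genes *Col1a1* (-0.03, adjusted p = 0.959) and *Col3a1* (0.49, adjusted p = 0.368) did not pass, and for *Col1a1* the 20-month range, 232 to 469, lay inside the 5-month range, 203 to 597. *Col6a5* kept its call in all 9 fits that left out 1 sample, *Eln* lost it in 5 and *Col15a1* in 6.

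Among 23 matrix proteases and inhibitors, 3 rose and 3 fell (13% each, against 9.75% and 9.35% of all genes). The 3 that fell were secreted proteases of the ADAMTS family, which cut proteoglycans. *Adamts1* read 53.6, 46.5, 36.7, 41.5 and 41.7 at 20 months and 209, 188, 172 and 100 at 5 months (log2 change -1.86, SE 0.21, limma adjusted p = 0.00417). *Adamts4* read 17.5, 10.1, 6.63, 8.46 and 13.7 against 55.5, 55, 45.8 and 26 (-1.94, SE 0.30, adjusted p = 0.00948). Both were separated between the ages and kept their calls in all 9 fits that left out 1 sample. The macrophage elastase *Mmp12* read 96.5, 779, 2572, 1249 and 283 against 49.8, 27.6, 110 and 110 (3.17, SE 0.87, adjusted p = 0.0372), and sample 36 lay inside the 5-month range. *Mmp13*, a collagenase, rose by 1.41 (adjusted p = 0.0374). It reached a value of 1 in no 5-month sample, so it passed the filter through the 20-month samples alone. The calls of *Mmp12* and *Mmp13* were lost in 6 and 5 of the 9 fits.

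Extracellular signals of the Wnt and TGF-beta families changed gene by gene. Of 17 genes listed as Wnt ligands and antagonists, 2 rose (11.8%, against 9.75% of all genes) and 3 fell (17.6%, against 9.35%). The median change was -0.27. edgeR called 0 higher and 1 lower, and DESeq2 called 2 and 4. The 2 that rose by limma were the secreted antagonist *Sfrp5* and *Mest*, an imprinted gene linked to fat cell enlargement. *Mest* read 229, 329, 200, 484 and 446 against 19.6, 6.98, 76.5 and 192 (log2 change 3.01, SE 0.79, limma adjusted p = 0.0340), with sample Y4 close below sample 38. The Wnt ligand gene *Wnt2b* read 2.06, 2.26, 1.34, 2.81 and 2.18 against 7.34, 11.3, 4.08 and 5.18 (-1.29, SE 0.26, adjusted p = 0.0169). Of 24 genes of the TGF-beta, BMP and activin families, 2 rose (8.33%) and 4 fell (16.7%), with a median of -0.13. *Bmp3*, a BMP that opposes other BMPs, read 15.5, 65.5, 44.8, 39.2 and 33.5 against 2.52, 4.21, 9.79 and 11.9, without overlap (2.38, SE 0.46, adjusted p = 0.0160). *Ctgf*, a matricellular target of TGF-beta signalling, fell by 1.25 on the log2 scale (adjusted p = 0.0292) and *Tgfb1* itself rose by 0.86 (adjusted p = 0.0492). *Bmp3* kept its call in all 9 fits that left out 1 sample, *Wnt2b* lost it in 1 (without Y1), and *Mest*, *Ctgf* and *Tgfb1* in 5 to 7.

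Mesothelial genes were lower where they were called. Of 18 tested, 0 rose and 5 fell (27.8%), 16 changes were negative, and the median was -0.67. The transcription factor gene *Wt1* read 8.46, 6.23, 5.59, 7.12 and 6.36 against 13.4, 12.9, 19 and 7.42 (log2 change -0.82, SE 0.23, limma adjusted p = 0.0375), with sample Y4 inside the 20-month range. *Upk3b* (-0.89, adjusted p = 0.0542) and *Msln* (-0.47, adjusted p = 0.391), further markers of the covering layer, did not pass. The largest falls were those of the keratins *Krt8* (-1.90) and *Krt18* (-1.56), which did not pass either. *Krt8* read 39.6, 2.45, 3.27, 13.6 and 2.9 against 24.8, 54.5, 7.73 and 64.3. *Epcam*, of the gut list below, was likewise highest in samples 36, Y1, Y2 and Y4. The part of other epithelial cells in this list was not tested. In 5 of the 9 fits that left out 1 sample (37, 38, 40, Y1 or Y2) no gene of the list was called.

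**Figure D2:**
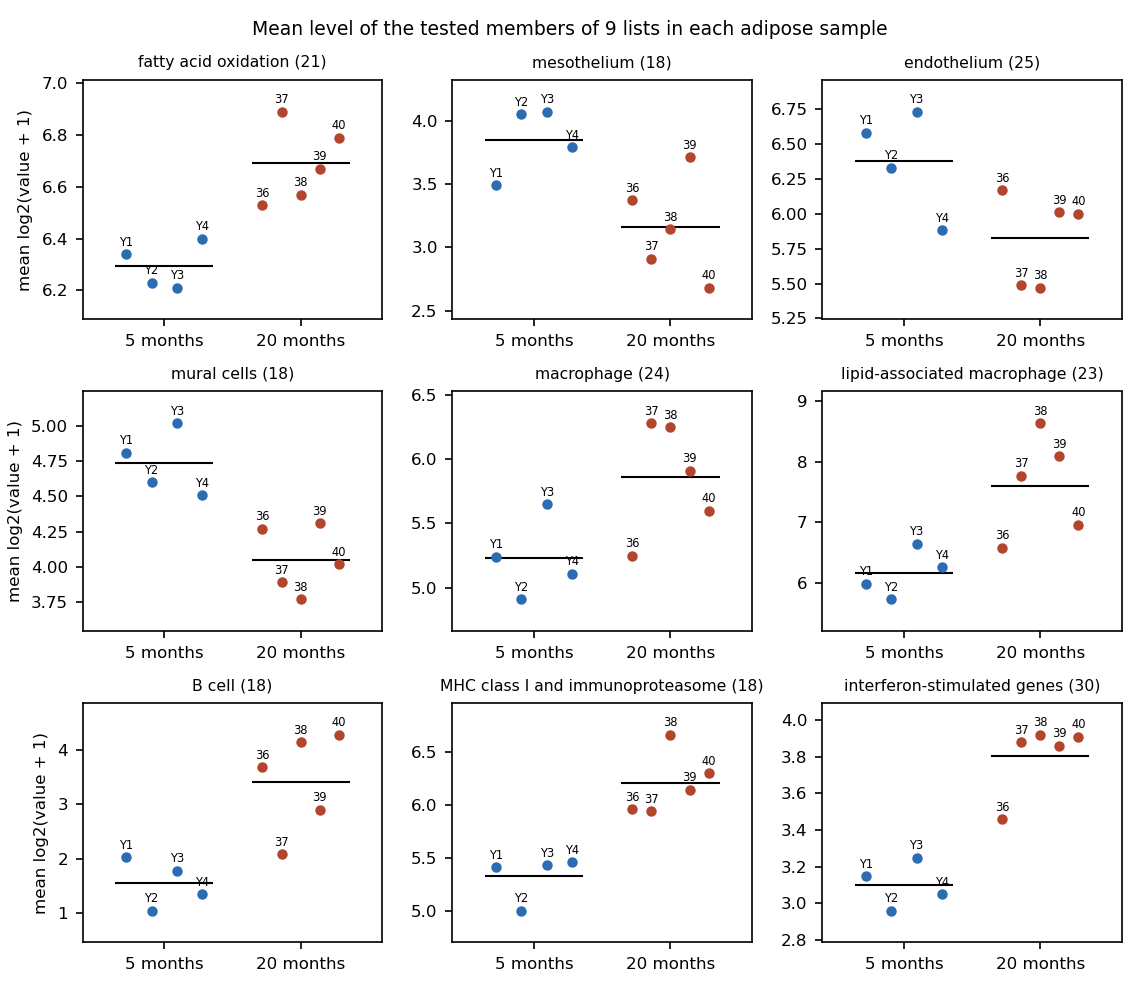
Mean log2(value + 1) over the tested members (number in parentheses) of 9 lists in each adipose sample, labelled with its number, at 5 months (blue) and 20 months (red), with the mean of each age as a line. For the lists of mural cells, fatty acid oxidation, B cells, class I and interferon-stimulated genes the ages did not overlap, whereas sample 36 lay among the 5-month samples for both macrophage lists.

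Vascular genes fell where they were called. Of 25 endothelial genes, 0 rose and 6 fell (24%, against 9.35% of all genes), 23 of the 25 changes were negative, and the median change was -0.57. *Nos3*, the endothelial nitric oxide synthase, read 41.1, 22.8, 21.1, 29.3 and 34.9 at 20 months against 77.8, 66.5, 78 and 41.8 at 5 months (log2 change -1.12, SE 0.24, limma adjusted p = 0.0210). The pan-endothelial adhesion molecule *Pecam1* read 220, 124, 122, 181 and 176 against 482, 462, 486 and 195 (-1.24, SE 0.30, adjusted p = 0.0276). The ages were separate for *Nos3* and overlapped for *Pecam1*, where sample Y4 lay below sample 36. *Gpihbp1*, which anchors lipoprotein lipase to the capillary wall, fell by 0.72 on the log2 scale (adjusted p = 0.0258), from 111 ± 11.3 (SD, n = 4) to 68.2 ± 16.6 (SD, n = 5), and *Kdr*, the main VEGF receptor, by 1.07 (adjusted p = 0.0331). The junction gene *Cdh5* did not pass (-0.73, adjusted p = 0.0916). Leaving out sample 39 or Y1 left 0 called genes in the list, and leaving out sample Y4 gave 13.

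Mural genes, those of smooth muscle and pericytes, showed the largest share of decreases among the vascular lists: 9 of 18 (50%) fell, 0 rose and the median change was -0.67. *Myocd*, called lower, reached a value of 1 in no 20-month sample and passed the filter through the 5-month samples alone. The contractile genes led. *Cnn1*, calponin of smooth muscle, read 2.39, 0.156, 0.446, 2.67 and 0.388 against 9.57, 10.8, 10.1 and 6.14 (log2 change -2.35, SE 0.37, limma adjusted p = 0.0107). *Myh11*, the smooth muscle myosin heavy chain, read 27.4, 11.2, 10.5, 25.2 and 18.8 against 87.6, 103, 82.1 and 34.1 (-1.97, SE 0.38, adjusted p = 0.0153). *Rgs5*, a marker of pericytes, read 64.2, 56.4, 51.9, 81.4 and 83.3 against 108, 90.8, 140 and 110 (-0.74, SE 0.18, adjusted p = 0.0274). None of these overlapped between the ages. *Acta2*, smooth muscle actin, did not follow them: it ranged from 122 to 469 at 20 months and from 145 to 595 at 5 months (-0.31, adjusted p = 0.635). Without sample Y1, 2 of the 18 were called lower and without sample 36, 11. *Cnn1* was called in all 9 fits and *Myh11* in 8 of them.

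Of 10 lymphatic endothelial genes, 9 changes were negative (median -0.99) and 1 gene fell (*Lyve1*, the hyaluronan receptor, from 108 ± 15.4 to 41.4 ± 27.4, SD, n = 4 and 5). *Lyve1* read 89.6, 28.9, 21.7, 34.5 and 32.6 against 112, 93.3, 128 and 100, and sample 36 again stood highest among its age (log2 change -1.54, SE 0.34, limma adjusted p = 0.0226). *Lyve1* is also made by some tissue macrophages. *Prox1*, the factor that defines lymphatic identity, did not pass (-0.46, adjusted p = 0.632). The summed level of the list was 515, 85.1, 222, 308 and 145 at 20 months and 486, 390, 515 and 481 at 5 months, so that sample 36 lay at the top of the 5-month range and sample 37 was the lowest of all 9. *Lyve1* lost its call, and the list had 0, without sample 37, 39, Y1 or Y2, and without sample 36 the list had 4.

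Among 21 angiogenic and hypoxia-related signals, 0 rose and 5 fell (23.8%, against 9.35% of all genes). The list as a whole did not shift: 11 changes were positive and 10 negative, with a median of 0.00. *Vegfa*, the main endothelial growth factor, read 198, 133, 64.3, 98.8 and 139 against 395, 351, 422 and 339 (log2 change -1.66, SE 0.28, limma adjusted p = 0.0114), and the lymphatic growth factor *Vegfd* read 20.2, 17.2, 15.3, 16.5 and 12.9 against 36.2, 34.4, 46.1 and 24.6 (-1.04, SE 0.18, adjusted p = 0.0123). Every 20-month sample lay below every 5-month sample for both, and both kept their calls in all 9 fits that left out 1 sample. *Angpt2*, a destabilising ligand of vessels, did not pass (0.09, adjusted p = 0.825).

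**Figure D3:**
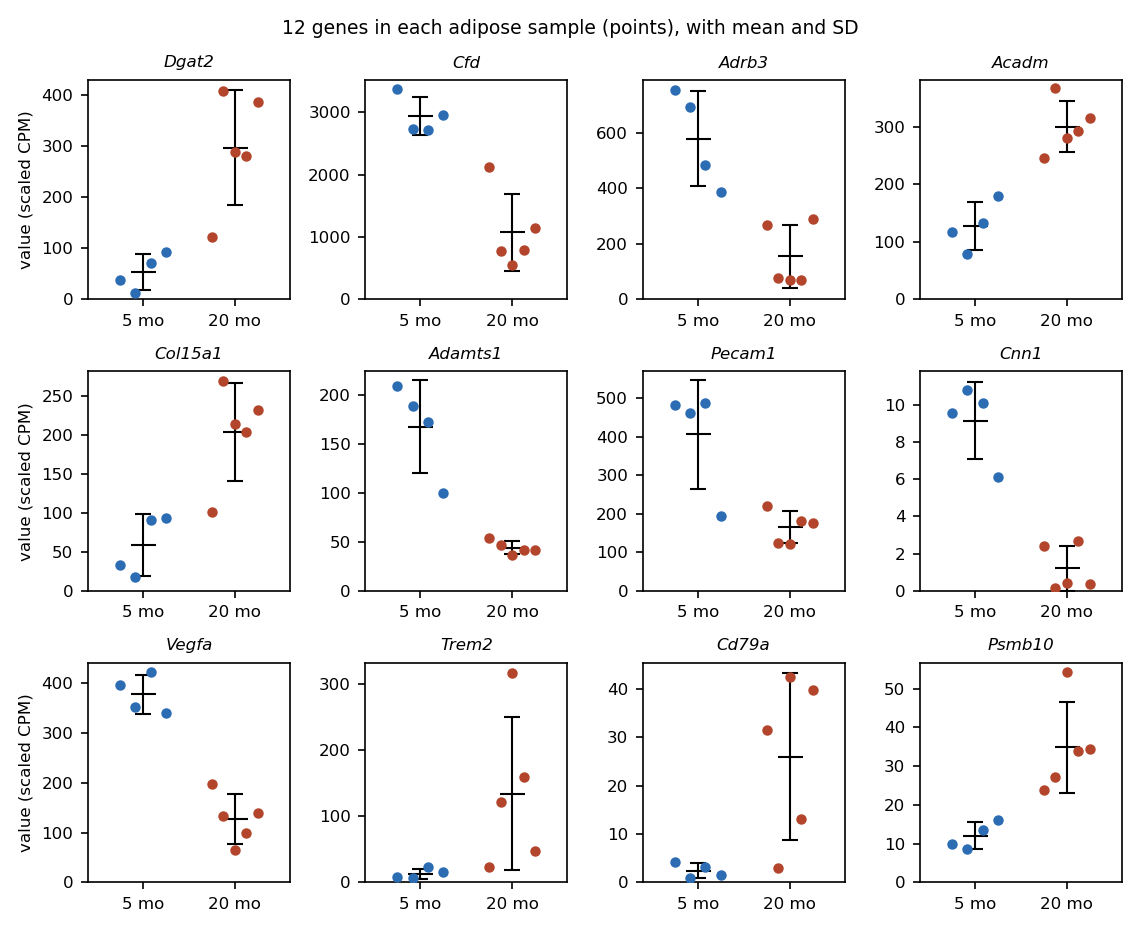
Deposited values (scaled CPM, linear axes from 0) of 12 genes in the 4 samples at 5 months (blue) and the 5 at 20 months (red), with the mean and SD of each age in black, lower bars being clipped at 0. *Vegfa* and *Cnn1* were lower and *Psmb10* higher in every 20-month sample than in every 5-month sample, while *Trem2* spread from 24 to 316 and *Cd79a* from 2.92 to 42.5 among the 20-month samples.

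Macrophage genes were examined as a general list and as the lipid-associated program. Of 24 general macrophage genes, 3 rose and 2 fell, close to the background, with a median change of 0.80. The F4/80 gene *Adgre1* read 39.4, 183, 205, 146 and 79.7 against 39.3, 25.7, 50.2 and 35.4 (log2 change 1.58, SE 0.45, limma adjusted p = 0.0397), and sample 36 lay inside the 5-month range. *Cd68*, a lysosomal marker, was 91.9 in sample 36 and 545 in sample 38 and did not pass (1.5, adjusted p = 0.0566). Those that fell, *Cd163*, the haemoglobin scavenger receptor (-1.79), and *Mertk*, a receptor for dying cells (-0.61), are markers of resident macrophages, but so is the folate receptor *Folr2*, which rose (1.34). *Cd163* and *Mertk* were not called in 7 and 8 of the 9 fits that left out 1 sample, and *Folr2* in 6. Leaving out sample 36 raised the number of higher genes of the list to 14, and leaving out any of samples 37, 38, 39, 40, Y1 or Y2 took it to 0.

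Of 23 genes of lipid-associated macrophages, 14 (60.9%, against 9.75% of all genes) rose, 0 fell and the median change was 1.54. *Trem2*, the lipid-sensing receptor, read 24, 122, 316, 160 and 47.6 at 20 months and 7.94, 6.61, 22.7 and 15.3 at 5 months (log2 change 2.90, SE 0.68, limma adjusted p = 0.0269). *Spp1*, which encodes osteopontin, read 61.2, 28.2, 262, 131 and 17 against 10.5, 3.69, 7 and 8.12 (3.03, SE 0.71, adjusted p = 0.0260). *Slc37a2*, a sugar phosphate exchanger of macrophages, read 24, 104, 111, 97.6 and 44.8 against 12.6, 8.24, 24 and 15.3 (2.15, SE 0.47, adjusted p = 0.0214). The ages did not overlap for these 3 genes, though samples 36 and Y3 were alike to the digits printed for *Slc37a2*, and samples 36 and 40 stood low among the 20-month samples for *Trem2* and *Slc37a2*. *Gpnmb*, a membrane glycoprotein of these macrophages, ranged from 249 to 3207 at 20 months and from 148 to 542 at 5 months and did not pass (1.82, adjusted p = 0.0960). The count was 0 without sample 39 or Y1 and 18 without sample 36.

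Among the lists with at least 5 genes tested, that of B cells had the largest share of increases: 16 of 18 tested genes (88.9%) rose, 0 fell and the median change was 2.01. *Cd37*, a tetraspanin abundant on B cells, read 31.5, 33.1, 65, 35.6 and 41.4 against 12, 6.87, 17.3 and 9.75 (log2 change 1.78, SE 0.27, limma adjusted p = 0.00948). *Bank1*, a scaffold of the B cell receptor, read 11.3, 3.97, 12.8, 5.98 and 14.9 against 2.46, 0.924, 2.16 and 1.31 (1.90, SE 0.35, adjusted p = 0.0141). *Cd79a*, the signalling chain of the receptor, read 31.4, 2.92, 42.5, 13.1 and 39.8 against 4.18, 0.887, 3.09 and 1.46 (2.67, SE 0.68, adjusted p = 0.0312). The order of the old samples was not that of the macrophage genes: samples 36, 38 and 40 were high and sample 37 was lowest for *Cd79a* and *Ms4a1*, inside the 5-month range in each. *Cd37* and *Bank1* kept their calls in all 9 fits that left out 1 sample. *Tnfrsf13c*, also called, reached a value of 1 in no 5-month sample and passed the filter through the 20-month samples alone. The count of the list was 2 without sample Y2 and 14 without sample 36, 37 or Y3.

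For antibody-secreting cells the picture was partial, because *Ighm*, *Igkc*, *Igha* and 7 other immunoglobulin constant genes were listed at 0 in all 9 samples, as were *Ighd* and the T cell receptor constant genes *Trac*, *Trbc1* and *Trbc2*. Whether these zeros come from the annotation or from the counting was not tested, and they say nothing of the cells. Of the 9 other plasma cell genes tested, 2 rose (*Mzb1* and *Sdc1*) and 1 fell (*Xbp1*). These were 22.2% and 11.1%, against 9.75% and 9.35% of all genes. The joining chain gene *Jchain* read 94.8, 15.5, 128, 101 and 185 against 81.2, 7.46, 37.9 and 24.3 and did not pass (log2 change 1.52, limma adjusted p = 0.166).

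Of 23 T cell genes, 5 rose (21.7%), 0 fell and 22 changes were positive, with a median of 0.98. The receptor signalling chain *Cd247* read 5.22, 3.82, 9.31, 6.75 and 8.54 against 2.36, 1.44, 3.32 and 2.88 (log2 change 1.12, SE 0.25, limma adjusted p = 0.0245), without overlap. *Cd8a*, the co-receptor of cytotoxic T cells, read 6.72, 1.91, 14, 3.91 and 9.08 against 2.52, 0.517, 0.863 and 0.553 (1.82, SE 0.46, adjusted p = 0.0303), whereas *Cd4*, that of helper cells, did not pass (0.28, adjusted p = 0.690). The difference between these 2 changes was not tested. Among 6 NK and cytotoxic genes tested, of 16 listed, 4 rose (66.7%, against 9.75% of all genes). They included the granule gene *Nkg7* (1.51), the chemokine *Ccl5* (1.82) and *Tbx21*, which passed the filter through the 20-month samples alone. The calls of *Cd247* and *Cd8a* were lost in 4 and 5 of the 9 fits that left out 1 sample, and without sample 39, Y1 or Y2 the T cell list had 0. The NK and cytotoxic list had 4 without sample 37, 2 without sample 36 and 0 without any 1 of the other 7 samples, and 0 with both samples nearest the other age left out.

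Antigen presentation genes rose in both classes. Of 13 class II genes, 9 (69.2%) rose and 0 fell, with a median change of 1.27. *H2-DMb1*, part of the complex that loads peptides, read 24.3, 30.9, 50.5, 29.2 and 36.4 against 10.5, 7.76, 13.7 and 17.2 (log2 change 1.42, SE 0.25, limma adjusted p = 0.0123), and *Ciita*, the master activator of class II genes, read 22.9, 18.1, 28.3, 16.5 and 46 against 12.8, 6.76, 13.1 and 12.3 (1.10, SE 0.30, adjusted p = 0.0358). Neither gene overlapped between the ages. The abundant invariant chain *Cd74* did not pass (0.72, adjusted p = 0.0695). Of 18 class I and immunoproteasome genes, 15 (83.3%) rose, 0 fell, and all 18 changes were positive (median 0.84). The immunoproteasome subunit *Psmb10* read 23.9, 27.3, 54.3, 34 and 34.5 against 9.92, 8.5, 13.5 and 16.2 (1.44, SE 0.25, adjusted p = 0.0120), and *B2m*, the light chain of every class I molecule, read 897, 1402, 1398, 1000 and 1157 against 657, 497, 739 and 719 (0.84, SE 0.21, adjusted p = 0.0292). Both were separate between the ages, and sample 38 was highest for *Psmb10*. Class I heavy chain genes are near-identical copies, and reads may have been divided among them. Without sample 39, Y1 or Y2 the class II list kept 1 call and the class I list 3.

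Interferon-stimulated genes rose together with them. Of 30 tested, 15 (50%) rose, 0 fell, and all 30 changes were positive, with a median of 0.69. The guanylate-binding protein gene *Gbp6* read 16.7, 26, 31.4, 20.2 and 30 against 10.5, 9.38, 8.13 and 9.2 (log2 change 1.30, SE 0.18, limma adjusted p = 0.00917). *Bst2*, the antiviral protein tetherin, read 25.9, 39.9, 43.7, 35.8 and 30.6 against 13.8, 12.7, 17.6 and 18.3 (1.11, SE 0.17, adjusted p = 0.00958). *Irf7*, the amplifier of type I interferon production, read 9.73, 15.2, 9.07, 11.5 and 11.7 against 6.44, 6.02, 6.87 and 5.94 (0.75, SE 0.15, adjusted p = 0.0160). The ages did not overlap for these genes. Without sample Y1, 6 genes of the list were called, and without sample 36, 19. *Gbp6* and *Bst2* kept their calls in all 9 fits, and *Irf7* in 8 of them.

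Interferon responses are written into promoters as pairs of GAAA repeats, to which interferon regulatory factors bind. The promoter windows of RefSeq (GRCm38.p6, 250 bases before to 50 after each start site) were therefore searched on both strands for GAAANNGAAA, where N is any base. It was present in 14 of the 22 interferon-stimulated genes that had a window (63.6%), among them 9 of the 12 called higher. It was also in 4 of 16 class I and immunoproteasome genes (25%) and 1 of 10 class II genes (10%). Of all 32851 windows, 3.44% held it. A gene counted if any of its windows matched, whereas the share of all windows counts each window singly. The 2 shares are therefore unlike measures, and genes with several windows had more chances to match. Stretches of the promoters of 5 genes that rose are shown because they carry that pattern, with matches in capitals, each read 5′ to 3′ on the strand of its gene. A match on the opposite strand reads TTTC in place of each GAAA.
B2m, chr2:122147528-122147577, plus strand: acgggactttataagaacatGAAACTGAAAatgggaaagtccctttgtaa
Bst2, chr8:71537567-71537622, minus strand: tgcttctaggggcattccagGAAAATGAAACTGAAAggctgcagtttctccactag
Gbp2, chr3:142620584-142620633, plus strand: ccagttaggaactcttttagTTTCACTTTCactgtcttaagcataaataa
Gbp3, chr3:142559979-142560034, plus strand: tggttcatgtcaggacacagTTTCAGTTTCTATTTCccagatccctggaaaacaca
Isg15, chr4:156200855-156200916, minus strand: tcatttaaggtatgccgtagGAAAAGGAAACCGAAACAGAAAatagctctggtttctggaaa
The repeat of *Bst2* holds 2 overlapping matches, that of *Gbp3* 2 and that of *Isg15* 3. *Gbp3* read 7.87, 12.2, 15, 13.9 and 14 against 4.75, 3.66, 5.64 and 4.57 (log2 change 1.25, SE 0.19, limma adjusted p = 0.00948), while *Isg15*, with more matches, read 2, 4.63, 3.87, 2.74 and 2.93 against 1.12, 0.591, 2.02 and 2.04 (0.81, SE 0.25, adjusted p = 0.0496). A match describes the letters in this window and was not tested as a binding site. The CArG box of smooth muscle genes, searched and counted in the same way, was present in 1 of 12 mural genes with a window. That gene was *Myl9*, which fell by 0.70 on the log2 scale. The box was in 1.63% of all windows.

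Of 31 chemokines and receptors, 5 rose (16.1%, against 9.75% of all genes) and 1 fell (3.23%, against 9.35%). The monocyte attractant *Ccl7* read 6.07, 11.4, 8.86, 9.26 and 7.77 against 3.19, 2.84, 4.11 and 4.16 (log2 change 1.07, SE 0.18, limma adjusted p = 0.0114), and the related *Ccl2* rose by 1.05 (adjusted p = 0.0293). *Cxcl12*, a stromal chemokine that retains lymphocytes, fell from 474 ± 173 (SD, n = 4) to 187 ± 59.5 (SD, n = 5), without overlap. Among 19 cytokines and inflammatory genes, 2 rose (10.5%). They were *Il1rn*, the antagonist of the interleukin-1 receptor (3.8, 17.9, 20.2, 20.4 and 7.41 against 1.95, 1.48, 2.19 and 2.5), and *Casp1*, the protease that matures interleukin-1 (10.9, 19.5, 41.4, 20.7 and 14.7 against 4.91, 3.69, 8.16 and 6.49). *Tnf* (0.60, adjusted p = 0.0728) and *Il1b* (-0.45, adjusted p = 0.401) did not pass, and *Il6* was too low to be tested (at most 0.32). *Ccl7* kept its call in all 9 fits that left out 1 sample, *Il1rn* lost it in 2, *Casp1* in 3, *Cxcl12* in 5 and *Ccl2* in 6.

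Of 19 complement genes, 2 rose (10.5%, against 9.75% of all genes) and 3 fell (15.8%, against 9.35%). Those that fell included *C7*, a component of the membrane attack complex. It read 118, 32, 34.1, 103 and 23.7 against 203, 275, 248 and 201 (log2 change -2.17, SE 0.46, limma adjusted p = 0.0205). *C7* was not called in 2 of the 9 fits that left out 1 sample. The dendritic cell list had 3 of 15 genes higher (20%) and 1 lower (6.67%). The interferon-regulated factor *Irf8*, also active in B cells and macrophages, read 29, 43, 71, 45.1 and 53.7 against 17.5, 13.8, 23.9 and 18.9 (1.30, SE 0.24, adjusted p = 0.0138), and kept its call in all 9 fits. Of 7 mast cell genes and of 7 eosinophil and type 2 lymphoid genes tested, none passed by limma, 1 and 3 had an unadjusted p under 0.05, edgeR called 0 and 1, and DESeq2 called 2 and 1. Of 3 neutrophil genes tested, *S100a8* rose (1.03, adjusted p = 0.0395).

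Programs that are not of 1 cell type also shifted. Of 20 proliferation genes, 8 rose (40%), 0 fell and all 20 changes were positive (median 0.83). The replication helicase subunit *Mcm5* read 5.54, 7.2, 10.6, 7.64 and 12.8 against 3.41, 2.03, 3.48 and 2.94 (log2 change 1.26, SE 0.23, limma adjusted p = 0.0128), and *Mki67*, which marks cycling cells, read 8.08, 19.7, 22.6, 16.9 and 43.6 against 8.42, 4.47, 8.59 and 7.01 (1.36, SE 0.39, adjusted p = 0.0399). Sample 36 was inside the 5-month range for *Mki67*. The number called was 17 without sample 36 and 1 without any of samples 37, 38, 39, 40, Y1 or Y2. Of 20 genes of senescence and the p53 response, 4 rose (20%, against 9.75% of all genes) and 1 fell (5%, against 9.35%). *Cdkn2a*, which encodes p16, read 1.68, 3.7, 6.01, 2.55 and 1.11 against 0, 0.148, 0.431 and 0.175 (1.64, SE 0.33, adjusted p = 0.0172), and *Cdkn1a*, which encodes p21, did not pass (-0.92, adjusted p = 0.0840). *Cdkn2a* reached a value of 1 in no 5-month sample, so it passed the filter through the 20-month samples alone. Leaving out sample Y1 took the count of the list to 0, and *Cdkn2a* itself lost its call only in that fit, while *Mcm5* lost it in none.

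Immediate early genes respond within minutes to hormones and other stimuli. Of 25 tested, 9 fell (36%, against 9.35% of all genes) and 3 rose, with a median change of -0.37. The orphan nuclear receptor gene *Nr4a1* read 10.3, 8.84, 6.87, 10.4 and 8.48 against 37.3, 43, 36.7 and 21.2 (log2 change -1.80, SE 0.20, limma adjusted p = 0.00417). The AP-1 subunit gene *Fosl2* read 49.1, 45.4, 29.4, 41.1 and 34.8 against 148, 215, 96.4 and 66.1 (-1.58, SE 0.31, adjusted p = 0.0160). The ages did not overlap for these 2, whereas *Fos* did not pass (-0.19, adjusted p = 0.709), and *Egr2* (1.97) and *Atf3* (1.92) rose, both being highest in sample 38. *Nr4a1* kept its call in all 9 fits that left out 1 sample, and *Fosl2* in 8. Without sample Y1, 2 genes of the list were called lower.

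The clock list had 3 of 19 genes lower (15.8%, against 9.35% of all genes), *Per1*, *Arntl* and *Cry1*. *Per1* read 38, 28, 18.5, 40.1 and 16.9 against 110, 184, 63.2 and 44.9 (log2 change -1.67, SE 0.41, limma adjusted p = 0.0288). *Dbp*, an output gene of the clock, did not pass (0.62, adjusted p = 0.144). *Per1* was not called in 6 of the 9 fits that left out 1 sample. The hour at which tissue was taken was not given in the sources used here.

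Of 76 subunits of oxidative phosphorylation, 9 rose (11.8%, against 9.75% of all genes) and 0 fell, although 72 changes were positive, with a median of 0.39. The complex I subunit *Ndufs7* read 44.5, 43, 56.7, 44.3 and 46.4 against 29.1, 29.3, 30.6 and 37.3 (log2 change 0.56, SE 0.12, limma adjusted p = 0.0196). Of 77 cytosolic ribosomal proteins, 1 rose (*Rps15a*, 0.67, adjusted p = 0.0379) and 0 fell, with a median of 0.37. Both counts moved widely with 1 sample left out. Without sample Y4, 46 and 38 genes were called higher. Without sample Y1 or Y2 no gene of either list was, without sample 37, 38, 39 or 40 the counts were 1 and 0, without sample Y3 they were 8 and 0, and without sample 36 they were 11 and 1. With a trend on transcript length and GC share removed from each sample, an alternative chosen after seeing the data, the medians were 0.245 and 0.18.

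Among 13 genes of the *Mlx* network and its targets, 1 rose (*G6pc3*) and 1 fell (*Mlxipl*), 7.69% each, against 9.75% and 9.35% of all genes. *Mlxipl* read 32.5, 40.8, 19.6, 29.5 and 32.6 against 64.9, 49.1, 54.5 and 42.2, and *G6pc3*, a glucose 6-phosphate phosphatase, read 25.1, 26.5, 28.2, 25.4 and 26.7 against 17.7, 16.5, 21.9 and 22.7 (limma log2 changes of -0.77 and 0.41, with adjusted p = 0.0330 and adjusted p = 0.0364). The ages did not overlap for either. *Txnip*, a glucose-induced target, read 1516, 909, 673, 1056 and 1204 against 1758, 1991, 1612 and 1414 and did not pass (-0.70, adjusted p = 0.0760), nor did its relative *Arrdc4* (-0.29, adjusted p = 0.184). *Mlxipl* and *G6pc3* were not called in 4 and 6 of the 9 fits that left out 1 sample. Because Mlx and its partners, like Myc and Max, bind variants of the E-box, promoter windows were searched for CACGTG, which reads the same on both strands. It was present in 7 of 14 genes of the list with a window (50%) and in 4 of 18 lipid synthesis genes (22.2%). Of all windows 7.15% held it, and of windows of genes tested in adipose tissue 9.54%. Here too a gene counted if any of its windows matched, while the shares of windows count each singly. Stretches from 3 genes of the *Mlx* list are shown with matches in capitals.
Mlxipl, chr5:135089772-135089817, plus strand: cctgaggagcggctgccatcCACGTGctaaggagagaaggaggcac
G6pc3, chr11:102189580-102189645, plus strand: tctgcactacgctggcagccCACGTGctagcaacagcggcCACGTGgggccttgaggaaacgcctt
Arrdc4, chr7:68749406-68749451, minus strand: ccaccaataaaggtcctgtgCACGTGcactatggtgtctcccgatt
Of these 3 genes *G6pc3* rose, *Mlxipl* fell and *Arrdc4* did not pass, and no match was tested as a binding site.

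Markers of cells that a dissected fat pad could carry along were examined as whole lists. No pancreatic islet gene of 7 and 1 acinar gene of 24 reached the filter. *Ins2* and *Pnlip* were at 0 in all 9 samples, and the 1 acinar gene, *Cela1*, rose (log2 change 1.78) while *Cpa1* was at most 0.233. No gene of the epididymis and testis list was tested, *Gpx5* was at 0 in all 9 samples, and the summed level of that list was 0.149 to 7.36 at 20 months and 0.0638 to 6.49 at 5 months. Of 12 hepatocyte genes none was called by limma, and their summed level was 7.28 to 330 at 20 months and 10 to 90.8 at 5 months. *Alb* was highest in samples 36 (173) and 38 (95.8). Of 14 skeletal muscle fibre genes none was called, all 14 changes were negative (median -1.15), and the summed level was 137 to 741 against 338 to 1217. The gut list had 1 of 5 tested genes lower (20%, against 9.35% of all genes), *Muc2* (-1.88). *Epcam* lay between 0.0779 and 36.8 in single samples. Of 8 erythroid and blood genes, 4 fell (50%, against 9.35% of all genes), the platelet genes *Ppbp* and *Pf4* and both alpha globin copies. The summed level of the list was 336 to 821 against 771 to 1793. The count of genes called lower was 0 without sample Y1, Y2 or Y3 and with both samples nearest the other age left out. It was 1 without sample 38, 39 or 40. *Ppbp* passed the filter through the 5-month samples alone and was not tested when 1 of those was left out. The peripheral nerve list had 2 of 6 genes lower (33.3%, against 9.35% of all genes) and 0 higher. Its changes were 3 positive and 3 negative, with a median of -0.32. Among those lower was the myelin gene *Prx* (1.83, 2.34, 1.25, 2.34 and 1.55 against 4.34, 4.88, 4.38 and 3.93). The positive changes, of *S100b* (0.64), *Pmp22* (0.39) and *Mbp* (0.28), did not pass. Without sample 39, Y1 or Y2 the list kept 1 call. Of 4 lymph node stroma genes tested none passed, and *Glycam1*, made by lymph node vessels, was at 0 in all 5-month samples and at most 1.22 at 20 months. The part of these markers in the changes given above was not tested.

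Whether the age change in adipose tissue differed from that in the other organs was tested in 1 fit over all 27 samples and 15572 genes, with 9 samples each of liver and skeletal muscle. The difference passed for 2424 genes (15.6%) against liver, of which 1086 (6.97% of all tested) were more positive and 1338 (8.59%) more negative in adipose tissue, and for 2285 (14.7%) against muscle, of which 1298 (8.34%) were more positive and 987 (6.34%) more negative. The split against liver depended on scaling: with the 20 most abundant genes left out of the totals, 613 were more positive and 1961 more negative, and against muscle 1186 and 1398. Of the 2674 genes called in adipose tissue, 467 (3.33% of the 14005 tested) differed from both organs in 1 direction, 232 of them higher and 235 lower. The lists that held at least 3 of these 467 were those of lipid-associated macrophages (5 of 23 genes), Wnt ligands and antagonists (3 of 17), B cells (3 of 18) and mesothelium (3 of 18). The 467 included 0 of 30 interferon-stimulated genes and 0 of 18 class I genes. In lists of this size a count of 0 is near the 3.33% of all genes.

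**Figure D4:**
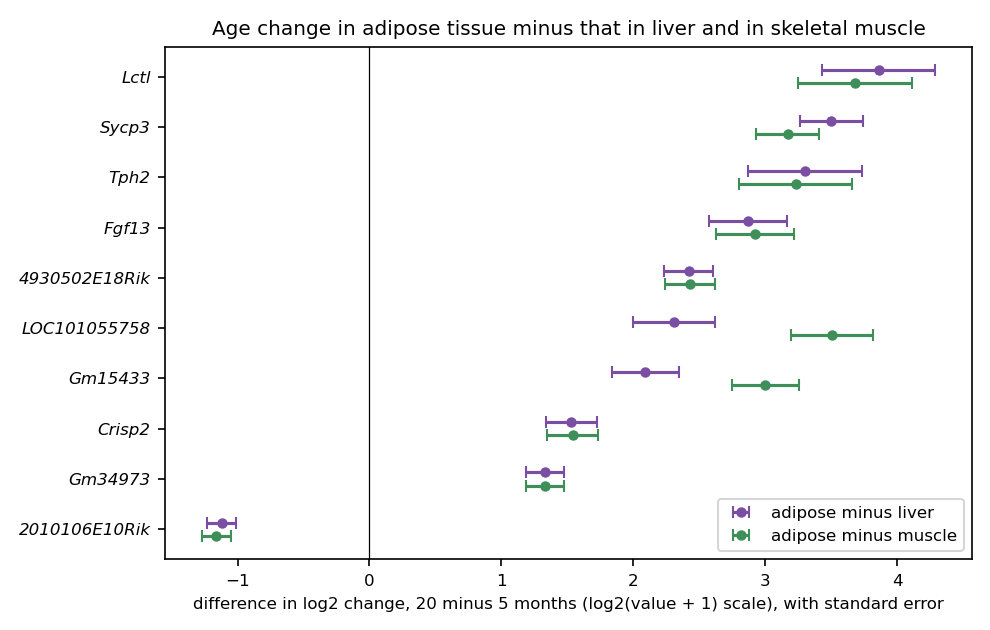
Difference between the log2 age change in adipose tissue and that in liver (purple) or skeletal muscle (green), with its standard error, for the 10 genes with the smallest adjusted p for both differences. Of these, 9 lie to the right of 0, up to 3.86 for *Lctl* against liver, and *2010106E10Rik* lies to the left.

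The 10 genes with the clearest differences from both organs included genes of the germ line, neuronal genes and uncharacterised ones. Of these 10, 6, *Crisp2* and *Tph2* among them, reached a value of 1 in no 5-month adipose sample, and 1, *2010106E10Rik*, in no 20-month one, so that the filter kept them within adipose tissue only through the age at which they were high. *Crisp2*, a sperm protein, read 2.03, 3.7, 1.75, 3.14 and 3.38 in old adipose tissue against 0.0638, 0.259, 0.133 and 0.669, and its mean was at most 0.02 in liver and muscle at either age. *Fgf13*, an intracellular growth factor homologue that binds sodium channels, read 14.4, 28.7, 17.8, 16.2 and 29.6 against 0.734, 1.66, 0.896 and 3.29. It was expressed in muscle at both ages, at 40.1 ± 3.3 (SD, n = 5) and 34.9 ± 3.21 (SD, n = 4). *Lctl*, a klotho-related membrane protein, read 29.9, 62.4, 60.1, 63.2 and 76.7 against 1.85, 0.554, 5.54 and 7.04, and was at 0 in all 9 livers. The uncharacterised X-linked gene *2010106E10Rik* went the other way, from 1.5, 1.11, 1.09 and 1.25 at 5 months to 0 in all 20-month samples but 38, which had 0.0297. The meiotic chromosome axis gene *Sycp3*, which had the smallest adjusted p, holds 2 E-boxes in its promoter window. That stretch is shown here because *Sycp3* is the gene with the clearest difference. The letters were present in 7.15% of all windows and in 9.54% of those of genes tested in adipose tissue.
Sycp3, chr10:88459503-88459569, plus strand: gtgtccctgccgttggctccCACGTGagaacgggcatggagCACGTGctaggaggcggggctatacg
*Sycp3* read 42.7, 52.2, 37.4, 32.5 and 49.4 against 3.57, 2.48, 3.09 and 3.64, the ages being far apart, and the match was not tested as a site.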

How the data were processed

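RNA-seq was performed on omental adipose tissue, liver and skeletal muscle from *Mlx*KO mice at 5 and 20 months, with 4 and 5 samples for each tissue. The authors prepared stranded poly(A) libraries and mapped and counted the reads in CLC Genomics Workbench. The builds GRCm38.p6 and mm10 are those named in the submitters' processing notes. The deposited values are a signal per gene: the columns are headed CPM, but each was divided by 1 further factor per sample that is not named in the sources used here. Whole reads could be recovered for 100% of the values. The design had assumed plain CPM, and the log-scale test planned for CPM was kept.

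Samples were grouped by the labels. Genes that reached a value of 1 in no fewer than 4 samples were tested with limma 3.58.1 in R 4.3.3 on log2(value + 1) with a variance trend, and p-values were adjusted by Benjamini-Hochberg over all genes tested at a threshold of 0.05. Adipose samples alone entered the age comparison, and all 27 samples entered the test of differences between tissues, without a block. The study's list of animals gives the 4 numbers at 5 months as mice that each gave adipose tissue, liver and muscle, so these samples are paired between tissues, and a fit with the mouse as a block was an alternative. The deviations of same-numbered samples from their group means correlated at -0.017 to 0.235 between adipose tissue and the other organs. The gene lists and the tissue compared were chosen with earlier results of these data known, so the lists are described by counts and medians and were not tested. The genes named came from the 10 largest increases and 10 largest decreases without overlap between the ages and a mean of at least 1, the anchor genes of each list, up to 3 called members of each list in each direction with the smallest adjusted p, and the 10 genes that differed most clearly from both other tissues. Some genes the rule selects are not reported here. Immunoglobulin and T cell receptor genes listed at 0 were named after their values were seen. Alternatives were other pseudocounts, filters and scalings, array weights, a fit without the variance trend, edgeR 4.0.16 and DESeq2 1.42.0 on recovered reads, all 27 samples in 1 fit, and each adipose sample left out in turn. Both samples nearest the other age left out, both samples at the ends left out, and a trend on transcript length and GC share removed were alternatives chosen after seeing the data. The fits were tested on simulated data. Promoter windows came from RefSeq (GRCm38.p6). Counting error for single genes was set by the 15141861 to 25673919 reads per adipose sample.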

Additional observations from a re-analysis of the deposited data

Results flagged for a closer look

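Among 301 groups of values, those of 154 named genes at each age, 14 (4.65%) held 1 sample far from the others of its age, where chance gives about 1 in 20. Sample 36 was the distant 20-month sample for *Lyve1* (89.6), *Cry1* (17.8), *Epcam* (21) and *Insig1* (49.4), and lay on the side of the 5-month samples for each of these. Sample 38 was the distant one for *Cidea* (5.74), *Ndufs7* (56.7), *Rps15a* (201) and *2010106E10Rik* (0.0297), sample 37 for *Pf4* (41.9) and sample 40 for *Glycam1* (1.22). At 5 months sample Y4 was distant for *Pecam1* (195) and *Dbp* (8.85), sample Y2 for *Ciita* (6.76) and sample Y3 for *Cd68* (140).

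The age change in adipose tissue differed from that in liver and in muscle, by the interaction test in limma over all 27 samples, for 8 of the genes named above. The log2 differences against liver and muscle were 3.50 and 3.17 for *Sycp3*, 3.86 and 3.68 for *Lctl*, and 3.30 and 3.23 for *Tph2*. They were 2.87 and 2.92 for *Fgf13*, 1.53 and 1.54 for *Crisp2*, and -1.12 and -1.16 for *2010106E10Rik*. For *Gm15433* they were 2.09 and 3.0, and for *LOC101055758* 2.31 and 3.51, and those genes lie among related copies.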

How the results depend on the processing

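The 1365 higher and 1309 lower genes became 713 and 812 with no filter, 4466 and 3990 with array weights, 2207 and 2140 by DESeq2, and 2629 and 2641 in 1 fit over all 27 samples. edgeR gave 1432 and 1260. Leaving out 1 sample gave 207 to 1925 higher and 190 to 1823 lower genes. Of the alternatives chosen after seeing the data, leaving out both samples at the ends gave 157 and 134, leaving out both nearest the other age gave 1954 and 1853, and removing the trend on transcript length and GC share gave 1529 and 1361. Differences from liver and muscle numbered 2424 and 2285, became 6187 and 5361 with array weights, and ranged from 1744 to 3359 and from 1511 to 3211 with 1 sample left out. Their share more positive in adipose tissue, 44.8% against liver and 56.8% against muscle, was 23.8% and 45.9% with the 20 most abundant genes left out of the scaling. The causes of these shifts were not tested beyond the smaller number of samples or the larger number of genes tested where the alternative itself sets them.

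Mice are shared between tissues but not between ages, so no pairing was possible within adipose tissue. Under a replicate block on the animal (correlation 0.101), 2758 and 2549 genes differed from liver and muscle, among them all 2424 and 2285 called without it. Those that were called in adipose tissue and differed from both organs numbered 532 and held all 467. Among 231 named genes the block ended no call and added 6 against liver and 11 against muscle. Of 169 called genes named by the rule, 43 kept their call with each sample left out, 3 more kept it but were not tested in all 9 of those fits, 33 kept it in every setting in which they were tested, and 0 results reversed. With 4 and 5 samples and sample 36 close to the 5-month samples, most single calls depended on which samples were included.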
